A study of Bos taurus with 9 samples.

Results

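The receptors and binding proteins of the insulin-like growth factor (IGF) system were examined in bovine uterine gland fragments in 3D culture. The set held 10 genes of the 20679 in the files: the receptors INSR, IGF1R and IGF2R and the binding proteins IGFBP1 to IGFBP7. Each was taken by its exact symbol, and all 10 were found. RNA-seq was performed on day 5 in 9 libraries, 3 per group. Cysts (CYST) were grown in Matrigel without EGF, UG-LIKE structures (MAT) in Matrigel with EGF, and the third group (MAT + COL) in Matrigel with EGF and type I collagen. Every culture, the cysts included, also received insulin, transferrin, sodium selenite, ascorbic acid and BSA in DMEM/F12, so no group was free of a ligand of INSR. The fragments were isolated by collagenase from abattoir uteri that carried a corpus luteum. They were then picked under a stereomicroscope and collected in microtubes. The age and breed of the animals are not given in the sources used here.

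IGF1 and IGF2 are growth factors that act on IGF1R, a receptor tyrosine kinase that signals through IRS adaptors, PI3K and AKT. INSR is the closely related insulin receptor, whereas IGF2R, also the receptor for mannose 6-phosphate, binds IGF2 and carries it to lysosomes. The binding proteins IGFBP1 to IGFBP6 are secreted, hold the IGFs with high affinity and set how much ligand reaches the receptors. IGFBP7 binds IGFs only weakly. In the ruminant uterus IGFs and their binding proteins are made in the endometrium and occur in the fluid that surrounds the conceptus, and IGFBP1 and IGFBP3 are known products of the bovine endometrium.

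On ARS-UCD2.0, IGF1R lies on chromosome 21 (7777948 to 8081620, + strand), IGF2R on chromosome 9 (96197493 to 96300017, + strand) and INSR on chromosome 7 (16057827 to 16200232, - strand). IGFBP3 (chromosome 4, 76116379 to 76124833, + strand) and IGFBP1 (chromosome 4, 76131285 to 76136236, - strand) are neighbours, 6451 bases apart, and the files list no gene between them. IGFBP2 (chromosome 2, 104619554 to 104648981, + strand) and IGFBP5 (chromosome 2, 104660537 to 104679081, - strand) form the second such pair, 11555 bases apart. IGFBP4 lies on chromosome 19 (40672671 to 40685834, + strand) and IGFBP6 on chromosome 5 (26878973 to 26882817, - strand). IGFBP7 (chromosome 6, 72405520 to 72485427, - strand) was the only member whose span overlapped another listed gene, POLR2B. The strand setting of the counting is not given, so reads of IGFBP7 and POLR2B may not be fully separated. The counts are per gene, without exons or isoforms.

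The total count per library ran from 6568968 to 17948600 reads. Levels are given as the deposited TPM (a level per transcript length, scaled to the same total in every library), and differences as Log2FC from edgeR's quasi-likelihood test on counts, with its SE and a Benjamini-Hochberg adjusted p over all genes tested. Libraries with the same replicate number deviated together, so each result is given from the fit without the replicate number and, where it changed a call, from the fit with the number as a block. Replicate numbers are those of the sample titles, and most library names end in a different number. The labels do not name the animals. The paper describes the MAT and MAT + COL libraries as grouping by individual, but the sources used here do not tie a replicate number to an animal, so the p-values measure the spread between these libraries. The sample titles name the uterine gland, and all 7 epithelial markers listed (EPCAM, CDH1, KRT8, KRT18, KRT19, CLDN3 and CLDN4) were detected in each group. The 9 fibroblast and stroma markers were detected in each group too.

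The members spanned a wide range of levels. IGFBP6 was the highest member in CYST (172.1 ± 11.9 TPM, SD, n = 3) and did not overlap the next, IGFBP3 (16.6 ± 20.0 TPM). The order below IGFBP3 in CYST was IGFBP1 (15.0 ± 14.6), IGFBP7 (12.5 ± 2.99), IGFBP4 (12.3 ± 2.64) and IGF1R (9.40 ± 3.37), each overlapping its neighbour. INSR (3.12 ± 0.753) lay below IGF1R without overlap, and IGF2R (2.80 ± 0.781) and IGFBP5 (1.35 ± 1.61) overlapped their neighbours. IGFBP3 had the highest mean in MAT (459.3 ± 638.7 TPM) and in MAT + COL (766.3 ± 1216 TPM), where it overlapped IGFBP6 (332.0 ± 117.6 and 269.8 ± 94.0 TPM). IGFBP2 had no read in 8 libraries and 2 reads (0.191 TPM) in MAT replicate 3, which is under the floor of 3 counts used here, and it was not tested.

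**Figure D1:**
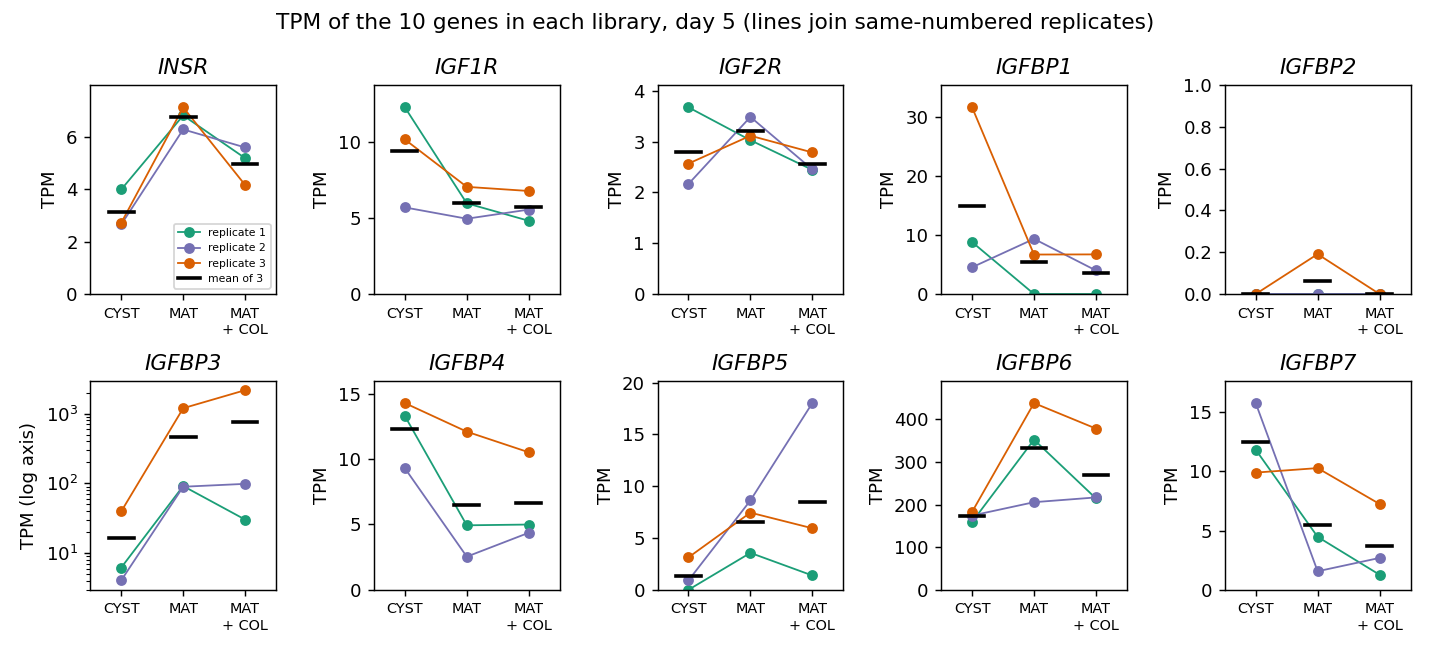
TPM of the 10 genes in each library by group, with lines joining same-numbered replicates and black bars for the mean of 3; the IGFBP3 axis is logarithmic and the others are linear from 0. IGFBP3 was lower in CYST (4.08 to 39.7 TPM) than in MAT (89.5 to 1197 TPM), with replicate 3 highest in all 3 groups.

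To examine the IGF system in UG-LIKE structures against cysts, MAT was compared with CYST. IGFBP3, IGFBP6 and INSR were higher in MAT in each same-numbered pair and rose in the fit with the replicate block, and no member fell. Without the block, 0 of the 9 members tested passed an adjusted p of 0.05, against 1.79% of all 12074 genes. Before adjustment 3 of the 9 were under 0.05, as were 2496 of all 12074 genes. With the block 3 of 9 passed, against 10.6% of all genes. DESeq2 without a block called 2, IGFBP6 and INSR, a count for which the share over all genes was not taken. TPM ranges did not overlap for 4 members (IGFBP3, IGFBP6, INSR and IGFBP5), each higher in MAT, against 23.7% of all genes in either direction. The median Log2FC of the 9 members was 0.18 without the block, against 0.01 over all genes, and their median absolute Log2FC was 1.11, against 0.39.

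INSR was at 3.99, 2.66 and 2.72 TPM in CYST replicates 1, 2 and 3, and at 6.82, 6.28 and 7.13 TPM in MAT. All MAT libraries lay above all CYST libraries, and the ratio within pairs was 1.71, 2.36 and 2.62. The Log2FC was 1.11 ± 0.30 (SE; adjusted p = 0.0919) without the block and 1.13 ± 0.29 (adjusted p = 0.0463) with it.

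IGF1R, the receptor through which the IGFs signal, was at 12.3, 5.71 and 10.2 TPM in CYST and at 5.98, 4.96 and 7.07 TPM in MAT. It was lower in MAT in 3 of 3 pairs, but the groups overlapped through CYST replicate 2. The Log2FC was -0.68 ± 0.36 (adjusted p = 0.339), and -0.60 ± 0.26 with the block (adjusted p = 0.182), which did not pass. IGF2R, the clearance receptor, was at 3.68, 2.17 and 2.57 TPM in CYST and at 3.03, 3.49 and 3.12 TPM in MAT. Its pairs went both ways, and the Log2FC of 0.18 ± 0.31 (adjusted p = 0.794) had a 95% interval from -0.53 to 0.90.

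IGFBP3, the main carrier of IGFs in serum, was at 6.20, 4.08 and 39.7 TPM in CYST replicates 1, 2 and 3 (58, 74 and 478 reads). In MAT it was at 91.6, 89.5 and 1197 TPM (666, 1736 and 17420 reads), so that the lowest MAT library lay above the highest CYST library. Replicate 3 was by far the highest library in both groups. The ratios within pairs were 14.8, 21.9 and 30.2, closer to each other than the levels were. Accordingly, the Log2FC of 4.67 had an SE of 1.41 without the block (adjusted p = 0.117) and the Log2FC of 4.43 an SE of 0.23 with it (adjusted p = 0.000327). By p-value IGFBP3 was gene 1123 of 12074 without the block and gene 3 of 12074 with it. Leaving out both libraries of a replicate number in turn, the blocked Log2FC stayed between 4.26 and 4.70, and its largest adjusted p was 0.00916. Without the block the value depended on replicate 3: the Log2FC was 6.63 without CYST replicate 3 (adjusted p = 0.0717) and 2.26 without MAT replicate 3 (adjusted p = 0.260), and over the 6 libraries left out in turn the adjusted p reached 0.301. DESeq2 gave no p for IGFBP3.

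IGFBP6, which prefers IGF2 over IGF1, was at 159.2, 174.2 and 182.8 TPM in CYST and at 352.4, 205.6 and 438.1 TPM in MAT. The CYST libraries were close together, and all MAT libraries lay above them, replicate 2 by the least. The Log2FC was 0.93 ± 0.30 (adjusted p = 0.135) without the block and 0.87 ± 0.21 (adjusted p = 0.0392) with it. Without both libraries of replicate 1, neither IGFBP6 nor INSR passed with the block and IGFBP3 alone of the members did. Leaving out replicate 2 or replicate 3 in the same way also ended the call of INSR.

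IGFBP5, a binding protein that attaches to extracellular matrix, had no read in CYST replicate 1 and was at 0.909 and 3.13 TPM in CYST replicates 2 and 3. It was at 3.56, 8.62 and 7.45 TPM in MAT, above every CYST library, although only 11 to 71 reads lay behind the MAT values. The replicate 1 pair gives a ratio of 4.71 or more with CYST set at the floor of 3 counts, and the other pairs gave 9.49 and 2.38. The counting error of the 11 reads in MAT replicate 1 is not part of that limit. The Log2FC was 2.16 ± 1.07 (adjusted p = 0.300), and 2.68 ± 0.93 with the block (adjusted p = 0.107).

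The remaining binding proteins had lower means in MAT and did not pass in either fit. IGFBP4, which restrains IGF action until it is cleaved by PAPPA, was at 13.3, 9.30 and 14.3 TPM in CYST and at 4.93, 2.53 and 12.1 TPM in MAT. It was lower in MAT in 3 of 3 pairs with overlap through replicate 3, and the Log2FC was -0.93 ± 0.57 (adjusted p = 0.404), or -1.18 ± 0.33 with the block (adjusted p = 0.0599). Without both libraries of replicate 3 it passed with the block (Log2FC -1.58, adjusted p = 0.0171). That fit rests on the pairs of replicates 1 and 2 alone and leaves out the pair with the smallest difference. No conclusion is drawn from it. IGFBP7 was at 11.8, 15.8 and 9.90 TPM in CYST and at 4.47, 1.57 and 10.3 TPM in MAT. The pairs of replicates 1 and 2 were lower in MAT and that of replicate 3 was 1.04-fold higher, and the Log2FC was -1.17 ± 0.66 (adjusted p = 0.365).

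IGFBP1 was uneven within groups, at 8.80, 4.53 and 31.6 TPM in CYST and at 0, 9.34 and 6.69 TPM in MAT. MAT replicate 1 had no read among its 6568968, which allows up to 0.692 TPM (3 counts), at least 12.7-fold lower than its CYST pair. In contrast, replicate 2 was 2.06-fold higher in MAT and replicate 3 was 4.73-fold lower. The Log2FC was -1.56 ± 1.16 (adjusted p = 0.489). Such floors and limits cover only the counting error of the library without reads, not that of its pair. Other errors are not covered, since the reads carry no molecular identifiers. Without both libraries of replicate 2 IGFBP1 passed with the block (Log2FC -3.27, adjusted p = 0.0255). That fit rests on the pairs of replicates 1 and 3 alone and leaves out the only pair that was higher in MAT. No conclusion is drawn from it.

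**Figure D2:**
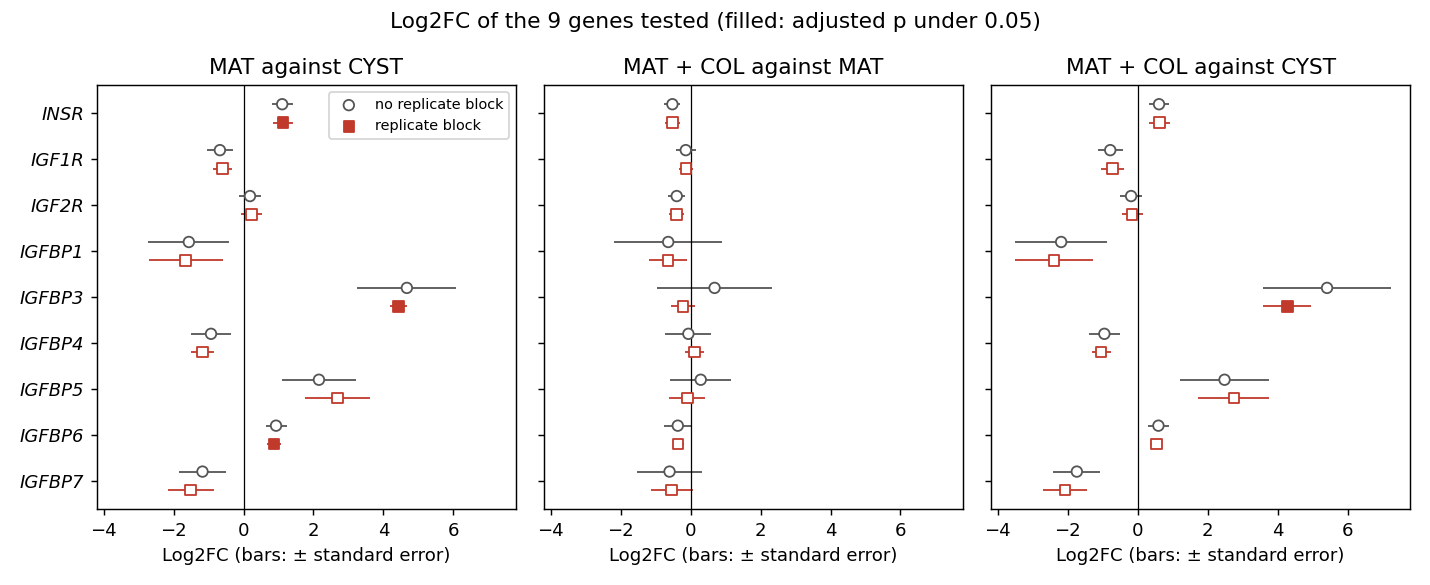
Log2FC ± SE of the 9 members tested in the 3 comparisons, from edgeR's quasi-likelihood test without (grey circles) and with the replicate block (red squares); filled marks have an adjusted p under 0.05. The block shortened the bar of IGFBP3 from 1.41 to 0.23 in MAT against CYST, and no mark is filled in MAT + COL against MAT.

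The composition of the IGFBP transcripts was described as the share of each gene in the summed TPM of IGFBP1 to IGFBP7. IGFBP6 held 79.9%, 83.4% and 65.0% of the sum in CYST, 77.1%, 64.8% and 26.2% in MAT, and 85.0%, 63.0% and 14.7% in MAT + COL. IGFBP3 held 3.11%, 1.95% and 14.1% in CYST, 20.0%, 28.2% and 71.6% in MAT, and 12.0%, 28.6% and 84.2% in MAT + COL. Within each pair of CYST and MAT libraries the IGFBP3 share was thus higher with EGF, and in replicate 3 IGFBP3 exceeded IGFBP6 in both EGF groups. The summed TPM was 199.3, 208.8 and 281.4 in CYST, 456.9, 317.1 and 1672 in MAT and 252.3, 344.3 and 2579 in MAT + COL, the 2 highest sums being those of replicate 3. The shares of a library add to 100, so a higher share of IGFBP3 lowers the others by construction.

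**Figure D3:**
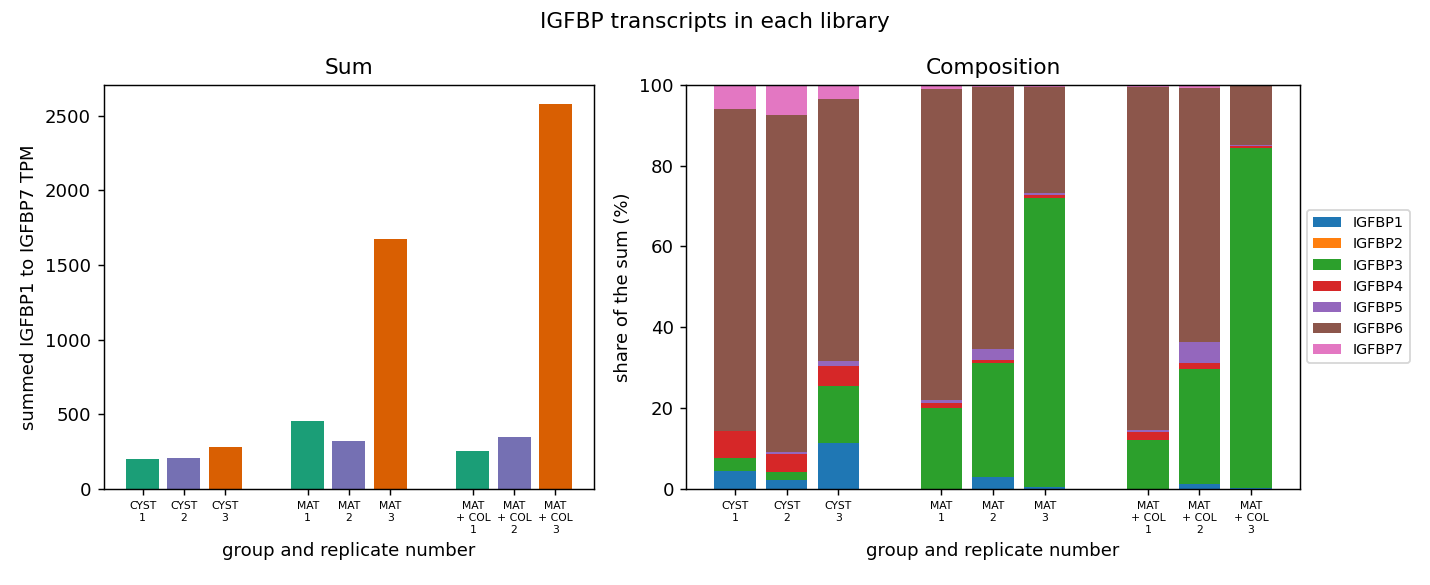
Left, summed TPM of IGFBP1 to IGFBP7 in each library, with the replicate number in colour; right, the share of each gene in that sum (%). IGFBP6 was the main transcript in 7 of 9 libraries and IGFBP3 (71.6% and 84.2%) in replicate 3 of MAT and MAT + COL.

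Markers of other cell types moved between groups and replicates as well. The summed TPM of the 9 fibroblast and stroma markers was 2058, 2878 and 4697 in CYST, 1705, 801.3 and 3179 in MAT and 1981, 2091 and 3619 in MAT + COL, highest in replicate 3 of each group, as was IGFBP3. It was lower in MAT than in CYST in 3 of 3 pairs, and with the block 0 of the 9 rose and 1 fell. Without the block 8 of the 9 had a negative Log2FC. The markers did not all follow the sum. POSTN was at 37.1, 39.4 and 131.2 TPM in CYST and at 65.9, 45.8 and 177.3 TPM in MAT, higher in MAT in each pair. The 7 epithelial markers summed to 17890 to 19220 TPM in CYST, 28460 to 44410 in MAT and 29520 to 39520 in MAT + COL, and 3 of 7 rose with the block in MAT against CYST. The 5 gland epithelium markers summed to 105.0 to 234.7 TPM in CYST, 485.0 to 648.5 in MAT and 448.4 to 665.1 in MAT + COL. In MAT against CYST 1 of the 4 tested rose without the block and 2 with it. These sums were mostly MUC1 (mean 143.2 TPM in CYST and 501.7 in MAT), and VTCN1 was also higher in MAT (0.181 and 36.9). PAX8 (45.0 and 36.8) and SOX17 (0.255 and 0.0626) had lower means in MAT, and the pairs of FOXA2 went both ways. The 5 smooth muscle markers summed to 148.9 to 187.8 TPM in CYST, 40.5 to 88.6 in MAT and 73.5 to 94.9 in MAT + COL, and 1 of 5 fell with the block in MAT against CYST. The 6 endothelial markers summed to 13.8 to 23.0, 8.60 to 44.3 and 15.7 to 41.4 TPM, and the 6 leukocyte markers to 25.4 to 34.6, 19.6 to 48.4 and 28.5 to 32.7 TPM, with no call in MAT against CYST in either fit and with CD3E and MS4A1 at 0 in CYST and MS4A1 at 0 in MAT + COL. The part of these cell types in the IGFBP and INSR values was not tested, and fewer cells of a type and less RNA per cell cannot be told apart in bulk libraries.

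To examine collagen I in the presence of EGF, MAT + COL was compared with MAT. No member passed in edgeR's test without or with the block (0 of 9 in both), and no gene of 12470 did either (0%). An unadjusted p under 0.05 was obtained for 51 genes without the block and 618 with it, among them 0 and 2 members. INSR and IGF2R had TPM ranges that did not overlap, both lower in MAT + COL, against 3.57% of all genes in either direction. Of the 9 fibroblast and stroma markers 8 had a positive Log2FC without the block, as had 6222 of all 12470 genes. Of the 7 epithelial markers 6 had a negative one, and none of these markers passed. Their part in the INSR and IGF2R values was not tested. INSR was at 5.19, 5.60 and 4.16 TPM with collagen I, between the CYST and MAT ranges, and lower than MAT in 3 of 3 pairs. Its Log2FC was -0.52 ± 0.23 (adjusted p = 1.0; 95% interval -1.06 to 0.02). IGF2R was at 2.44, 2.45 and 2.79 TPM with collagen I, and its Log2FC was -0.40 ± 0.24 (adjusted p = 1.0; 95% interval -0.97 to 0.17).

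IGFBP3 was at 30.3, 98.4 and 2170 TPM in MAT + COL (568, 1905 and 39609 reads). It was lower than MAT in replicate 1, close to it in replicate 2 and higher in replicate 3, with ratios of 0.331, 1.10 and 1.81. The Log2FC was 0.68 ± 1.64 without the block and -0.22 ± 0.35 with it, where the 95% interval ran from -1.0 to 0.57. IGFBP6 was at 214.4, 216.8 and 378.4 TPM, with a Log2FC of -0.37 ± 0.38, and overlapped MAT. With the block its unadjusted p was 0.0459 and its adjusted p 0.955. IGFBP5 was at 1.38, 18.0 and 5.94 TPM, IGFBP4 at 4.99, 4.36 and 10.5 TPM, IGFBP7 at 1.27, 2.69 and 7.25 TPM and IGF1R at 4.83, 5.57 and 6.79 TPM, all overlapping MAT. IGFBP1 was at 0, 3.99 and 6.71 TPM, so replicate 1 had no read in both EGF groups (up to 0.268 TPM in MAT + COL).

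MAT + COL was also set against CYST, a comparison that shares its libraries with the other comparisons. Without the block 0 of 9 members passed, against 1.49% of all 12509 genes. Before adjustment 2 of the 9 were under 0.05, as were 2709 of all 12509 genes. With the block 1 passed, IGFBP3, against 5.26% of all genes. TPM ranges did not overlap for INSR and IGFBP6 (higher in MAT + COL) and IGFBP7 (lower), against 24.7% of all genes in either direction. The IGFBP3 ratios within pairs were 4.88, 24.1 and 54.7, and MAT + COL replicate 1 lay within the CYST range. Its Log2FC was 5.41 ± 1.84 (adjusted p = 0.149) without the block and 4.28 ± 0.68 (adjusted p = 0.0315) with it. Without both libraries of replicate 2 no member passed with the block, whereas without those of replicate 3 IGFBP3, IGFBP4, IGFBP5 and IGFBP7 did. The share of all genes that passed was not taken in these reduced fits, so these counts cannot be set against it.

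Beside the values against MAT above, the Log2FC against CYST was 0.61 ± 0.29 for INSR (adjusted p = 0.280), 0.59 ± 0.30 for IGFBP6 (adjusted p = 0.298) and -1.74 ± 0.67 for IGFBP7 (adjusted p = 0.190). The IGFBP7 libraries with collagen I all lay below the lowest CYST library (9.90 TPM). IGFBP1 replicate 1 was at least 32.8-fold lower than its CYST pair by the same kind of limit, while replicate 2 was 1.14-fold and replicate 3 4.71-fold lower.

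The other genes of the pathway were taken from a list of 51, of which 49 were in the files by symbol. The ligands themselves were nearly undetected: IGF1 had 0 to 15 reads per library (at most 0.913 TPM), IGF2 0 to 14 reads (at most 0.572 TPM) and INS no read in any library. None of the ligands passed the filter for testing. In MAT against CYST 33 genes of the list were tested. Without the block 0 passed and 8 were under 0.05 before adjustment, as were 2496 of all 12074 genes. With the block 1 rose, CTSD, and 1 fell, STC1, a smaller share of the 33 than the 10.6% of all genes called in that fit. Their median Log2FC with the block was 0.10.

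CTSD, a lysosomal protease that can cleave IGFBPs, was at 108.2, 103.5 and 156.2 TPM in CYST, 318.6, 238.7 and 348.9 TPM in MAT and 368.3, 270.2 and 387.7 TPM in MAT + COL. Both EGF groups lay above CYST in every library. The blocked Log2FC in MAT against CYST was 1.29 ± 0.18 (adjusted p = 0.00916), and without the block it was 1.25 ± 0.30 (adjusted p = 0.0713). STC1, a secreted glycoprotein that inhibits the IGFBP protease PAPPA, was at 208.7, 151.6 and 472.4 TPM in CYST, 24.0, 72.5 and 132.6 TPM in MAT and 43.2, 97.0 and 129.5 TPM in MAT + COL. Both EGF groups lay below CYST in every library, and the Log2FC in MAT against CYST was -2.00 ± 0.37 with the block (adjusted p = 0.0199) and -1.93 ± 0.69 without it (adjusted p = 0.168). Neither gene passed with the block without both libraries of replicate 1, where 0 of the list did. PAPPA itself was nearly undetected, with 0 to 11 reads in CYST, 0 to 1 in MAT and 2 to 14 in MAT + COL (at most 0.316 TPM).

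Of the genes that passed in neither fit, ESM1, IRS1 and RHEB had the smallest p in MAT against CYST without the block. IRS1, an adaptor of INSR and IGF1R, was at 2.61, 3.28 and 2.00 TPM in CYST and 3.65, 4.25 and 5.55 TPM in MAT, without overlap (Log2FC 0.78 ± 0.24, adjusted p = 0.117). RHEB, the GTPase that activates mTOR complex 1, was at 163.1, 171.9 and 141.5 TPM in CYST and 111.9, 124.3 and 106.2 TPM in MAT (Log2FC -0.48 ± 0.15, adjusted p = 0.131). ESM1, a secreted proteoglycan with an IGFBP-type domain, was at 36.7, 60.2 and 20.2 TPM in CYST and 18.5, 15.7 and 18.4 TPM in MAT (Log2FC -1.12 ± 0.33, adjusted p = 0.111). IRS1, RHEB and ESM1 kept adjusted p-values above 0.05 with the block (0.0693, 0.0893 and 0.073).

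**Figure D4:**
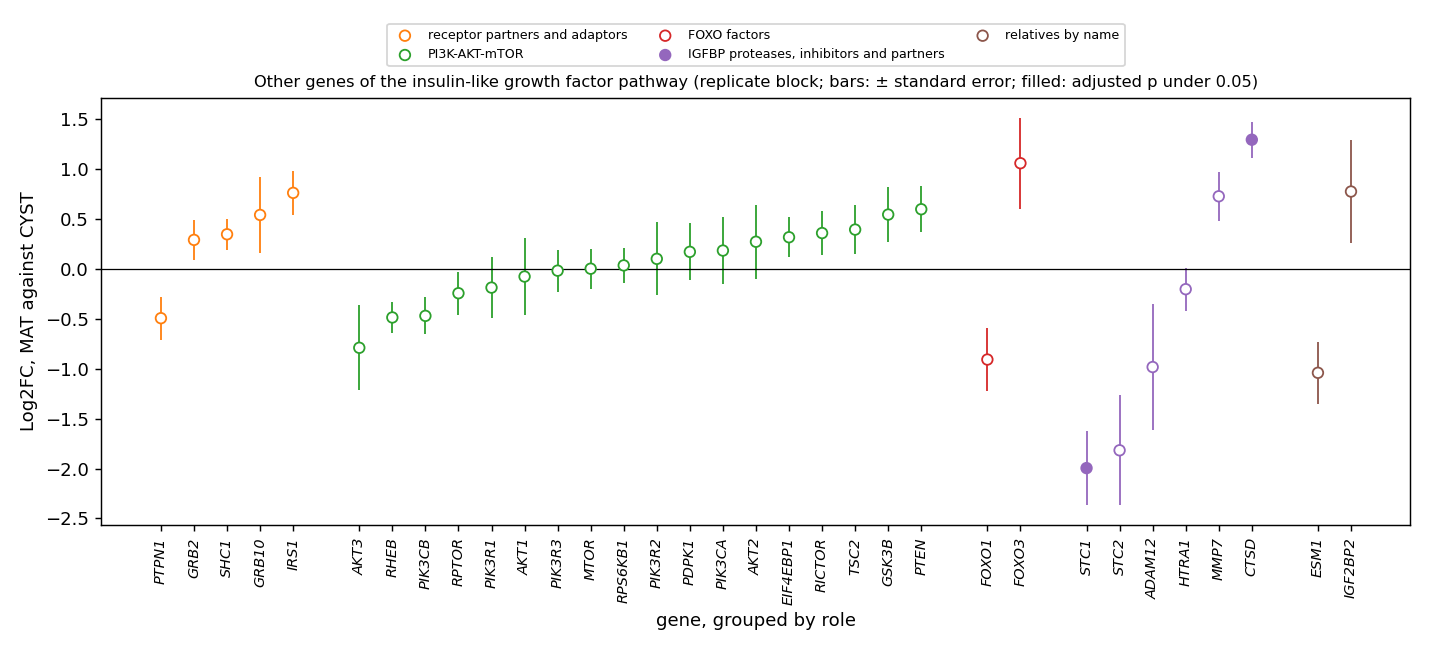
Log2FC ± SE in MAT against CYST, with the replicate block, of the 33 tested genes of the pathway list, grouped by role; filled marks have an adjusted p under 0.05. CTSD (1.29) and STC1 (-2.00), both among the IGFBP proteases and their inhibitors, are the only filled marks.

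INSR had the smallest p of the members in MAT against CYST without the block, and the genes most like it were sought by Pearson correlation of log2 CPM over the 9 libraries among 12858 genes. The highest were an unnamed gene on chromosome 18 (ENSBTAG00000050920, r = 0.982), TNFSF9, a ligand of the tumour necrosis factor family (r = 0.937), SLC25A23, a mitochondrial carrier (r = 0.930), BAG4 (r = 0.930) and TSNARE1 (r = 0.929). TNFSF9 was at 12.7, 10.9 and 11.7 TPM in CYST, 33.2, 31.8 and 28.8 TPM in MAT and 22.1, 29.8 and 22.9 TPM in MAT + COL. The group means had the order of INSR, lowest in CYST and highest in MAT. A shared order is favoured by picking genes for their correlation with INSR in the same libraries. The 9 libraries share group, replicate and depth differences, so these correlations are a description. Among the members, the highest correlation over the same 9 libraries was that of IGFBP3 with IGFBP6 (r = 0.907), followed by that of IGFBP4 with IGFBP7 (r = 0.877).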

How the data were processed

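Total RNA of 9 cultures was sequenced after SMART-Seq HT PLUS library preparation. Trimmed reads were aligned by the authors to ARS-UCD2.0 with CLC Genomics Workbench, and they deposited raw counts per gene and, in a second table, TPM values (scaled to the same total in each library). The annotation release and strand setting are not given in the sources used here. The titles of the samples gave the groups and replicate numbers, and the paper the group names. These replicate numbers are not the numbers that end most of the library names.

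Differences were tested on the counts using edgeR 4.0.16 under R 4.3.3 (filterByExpr by group with a minimum count of 10, TMM, glmQLFit and glmQLFTest, two-sided, 6 libraries per comparison, Benjamini-Hochberg adjustment over all genes tested). The SE is the Log2FC divided by the root of F. The paper's methods name no pairing, although its results describe MAT and MAT + COL libraries as grouping by individual, so the block was an alternative fit. The correlation of deviations from the group means was 0.330, 0.437 and 0.396 for same-numbered libraries of MAT and CYST, 0.471, 0.613 and 0.687 for MAT + COL and MAT, and 0.278, 0.350 and 0.347 for MAT + COL and CYST, so the numbers were read as pairs. Other alternatives were RLE size factors, no filter, DESeq2 1.42.0, limma 3.58.1 on log2(TPM + 1), all 9 libraries in 1 fit with and without the block, and leaving out each library. Leaving out each replicate number with the block was added after the data were seen. Log2 CPM used a prior count of 2.

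The members, gene lists and rules were chosen with earlier results of these data known. Genes named were all members, the ligands, pathway genes that passed in either fit, the 3 others with the smallest p in MAT against CYST without the block, and the 5 genes most like the member with the smallest p. PAPPA and single cell type markers were named in addition. All 10 members matched a RefSeq symbol on the same chromosome. Plots were made in Python 3.11.15 (matplotlib 3.10.9).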

Additional observations from a re-analysis of the deposited data

How the results depend on the processing

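In MAT against CYST the count of members called was 0 without the block, with RLE size factors, no filter and limma, but 2 with DESeq2, 3 with the replicate block, 1 with all 9 libraries and 4 with all 9 libraries and the block. In MAT + COL against CYST it was 1 with the block and 2 with all 9 libraries and the block, otherwise 0. The pathway list count, 0 without the block, was 3 with DESeq2, 2 with the block, 1 with all 9 libraries and 7 with all 9 and the block in MAT against CYST. In MAT + COL against CYST it was 3, 1, 1 and 2 under the same settings. The replicate block changed no other call of a member or of the list. With libraries left out, the members called ranged from 0 to 3 in MAT against CYST and from 0 to 4 in MAT + COL against CYST, and the list from 0 to 4 and from 0 to 5. In these runs members were called only with the block. Without the block, leaving out CYST replicate 3 or MAT replicate 3 gave 1 call of the list in MAT against CYST, and leaving out CYST replicate 3 gave 1 in MAT + COL against CYST. Where a library was left out without the block, 5 libraries remained. With the block, both libraries of a replicate number were left out, so these fits rest on the pairs of the other numbers alone. Shares over all genes were taken only for edgeR's fits without and with the block on 6 libraries. The other counts of calls have no such share beside them.

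Collagen I had no called member, and 9 of 62 Log2FC values with all libraries kept changed sign. Under limma, the block, and all 9 libraries with the block, IGFBP3 was -0.19, -0.22 and -0.073, IGFBP4 was 0.14, 0.11 and 0.084, and IGFBP5 was -0.080, -0.096 and -0.068. With libraries left out, 16 of 81 changed sign, with ranges of -2.96 to 3.11 for IGFBP3, -0.62 to 0.82 for IGFBP4, -0.88 to 0.80 for IGFBP5, -0.32 to 0.032 for IGF1R and -1.57 to 0.35 for IGFBP7. IGFBP3 was -2.96 without MAT + COL replicate 3. With the block, IGF1R was 0.006, IGFBP4 0.203 and IGFBP7 0.009 without replicate 1, IGFBP3 was -0.408 and IGFBP5 -0.843 without replicate 2, and IGFBP3 was -0.79 and IGFBP4 0.317 without replicate 3. With the block, IGF2R changed sign without replicate 2 in MAT against CYST (-0.072) and without replicate 1 in MAT + COL against CYST (0.086). The cause was not tested. IGFBP3 in MAT against CYST ranged from 2.26 to 6.63 with libraries left out. DESeq2 gave no p for it. Low counts limit IGFBP1, IGFBP5 and IGFBP7, and IGFBP2 could not be tested.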
